A study of Homo sapiens with 33 samples.

Results

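Glycolytic and hypoxia-inducible genes were followed across 2 urothelial carcinoma cell lines made resistant to PD173074, an inhibitor of the fibroblast growth factor receptors (FGFRs). The set was a list of 36 named genes, of which 35 were measured among the 22465 genes tested. A gene was taken as measured where a probe set of the array carried its symbol and no other. SLC16A3, which encodes the lactate exporter MCT4, had no such probe set and is not analysed here. Of the measured members, 22 belonged to glucose uptake, glycolysis and pyruvate handling, and 13 to oxygen sensing and its target genes.

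RT112 and RT4 are human bladder cancer lines that carry an FGFR3-TACC3 fusion and depend on FGFR signalling. The 33 arrays (24 of RT112 and 9 of RT4) covered 11 conditions with 3 arrays each. The treated and resistant RT112 conditions were parental cells given PD173074 for 24 h and the derivatives R1, R2 and R3, each profiled in drug and again after 4 to 6 passages out of drug. Their reference was parental RT112 without drug. RT4 had 1 derivative, R1, in and out of drug, and untreated parental RT4, but no acute treatment. The derivatives arose from long culture at a constant dose and were kept in 1 µM (RT112 R1, R3 and RT4 R1) or 2 µM (R2) PD173074, while the dose of the acute arrays is not given in the sources used here. Each resistant line is 1 selected population, so a difference between lines is a difference between single derivations. R3 carries an HRAS mutation in most of its cells by the study's account, and RT112 and RT4 were grown in different media. Nothing in the labels says that the 3 arrays of a condition came from separate cultures, so p-values measure only the spread between these arrays, which may be technical.

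Glycolysis splits glucose into pyruvate in the cytosol. Glucose enters through transporters of the SLC2A family, is trapped by hexokinases, is committed to the pathway by phosphofructokinase, and leaves as pyruvate, which lactate dehydrogenase turns into lactate or the pyruvate dehydrogenase complex passes to the mitochondria. Many of these genes are targets of the hypoxia-inducible factors, whose alpha subunits HIF1A and EPAS1 (HIF-2 alpha) are marked for destruction by the prolyl hydroxylases EGLN1 and EGLN3 when oxygen is present. Growth factor signalling is known to raise glycolytic transcripts in dividing cells. HIF1A is controlled largely through its protein, which the arrays do not measure.

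Hypoxia-inducible factors bind the core letters ACGTG or GCGTG. Promoter windows of 300 bases (250 before to 50 after the annotated start) came from RefSeq on the build GRCh38.p14, and 31 of the 35 measured members had at least 1 entry, 55 windows in all. On either strand, ACGTG lay in 21 of these 55 (38.2%) and in 7518 of 35116 windows of all genes (21.4%), while GCGTG lay in 43.6% of member windows and in 36.5% of all windows. The windows of members with a single entry and the most marked called falls (PGAM1 and GPI) and rises (ADM and EPAS1) after 24 h of drug are shown to set their sequence beside their signal. Capitals mark each match to either core. The window of PGAM1 lies at chr10:97427568-97427867, that of GPI at chr19:34364742-34365041, that of ADM at chr11:10304823-10305122 and that of EPAS1 at chr2:46297157-46297456, all on the plus strand.
PGAM1: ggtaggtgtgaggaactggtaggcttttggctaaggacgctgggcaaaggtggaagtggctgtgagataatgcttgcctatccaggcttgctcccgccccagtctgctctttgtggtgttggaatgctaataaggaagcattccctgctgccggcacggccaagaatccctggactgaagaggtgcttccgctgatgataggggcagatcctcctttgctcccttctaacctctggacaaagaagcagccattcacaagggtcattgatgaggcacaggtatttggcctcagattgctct
GPI: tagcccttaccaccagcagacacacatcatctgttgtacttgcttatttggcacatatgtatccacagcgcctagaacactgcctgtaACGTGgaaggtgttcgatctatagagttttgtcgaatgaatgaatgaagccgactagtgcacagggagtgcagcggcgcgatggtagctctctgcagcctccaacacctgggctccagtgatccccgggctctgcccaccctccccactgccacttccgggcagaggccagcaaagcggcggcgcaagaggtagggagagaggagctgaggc
ADM: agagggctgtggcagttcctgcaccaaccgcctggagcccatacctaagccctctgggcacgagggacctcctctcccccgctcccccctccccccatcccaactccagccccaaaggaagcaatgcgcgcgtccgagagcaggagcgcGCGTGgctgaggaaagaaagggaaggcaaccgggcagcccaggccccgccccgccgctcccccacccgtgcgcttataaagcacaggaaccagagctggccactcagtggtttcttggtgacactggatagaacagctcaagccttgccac
EPAS1: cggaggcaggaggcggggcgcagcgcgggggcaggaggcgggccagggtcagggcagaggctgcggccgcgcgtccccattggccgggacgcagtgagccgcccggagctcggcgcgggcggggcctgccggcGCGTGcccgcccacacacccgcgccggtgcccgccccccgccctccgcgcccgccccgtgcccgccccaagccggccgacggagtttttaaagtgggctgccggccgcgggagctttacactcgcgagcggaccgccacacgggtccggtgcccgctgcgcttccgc
No core was found in the PGAM1 window. The GPI window held 1 ACGTG at position -162 from the start, and those of ADM and EPAS1 each held 1 GCGTG, at -101 and -117. Among the other members, the most matches in 1 window were 6, in BNIP3, HK2 and LDHA, and neither EGLN3 nor P4HA2 had a match. These are matches of letters and say nothing of binding.

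The values are log2 signals, and a difference of 1 is a doubling of signal. Levels are compared only between arrays of the same probe set. Array medians lay between 4.86 and 5.08, and SLC2A3 sat at that level in most conditions, so its rises may be understated. A member is called where limma's adjusted p over all genes was under 0.01, the threshold of the study's methods. All adjusted p-values below are limma's. Where arrays are said to be apart or not to overlap, this describes the values. For a called gene it is no further support, because a call on 3 arrays a group nearly implies it. The share of all genes without overlap was not counted. The labelled treatment was checked with 7 transcripts taken as readouts of ERK signalling. Of these, 6 fell in acutely treated RT112 and in R1 and R2 in drug, 1 fell in R3 in drug and 5 fell in RT4 R1 in drug. None was called higher, but EGR1, the immediate early gene of the list, differed by 3.69 in R1 in drug and by 4.26 in RT4 R1 in drug against their parental lines (adjusted p = 0.183 and 0.0146). The study's immunoblots showed phosphorylated ERK in R1, R2 and R3 near the level of parental RT112, with and without drug. It was reduced in parental cells after 24 h of drug. The transcripts were used only to check the drug label. For R3 they did so weakly, since none of the 7 was called in R3 in against out of drug. How far they follow ERK activity was not tested. Most markers of urothelial cells were high, with a median of 16 genes between 11.4 and 13.7 in the conditions. In each condition 14 or 15 of them lay above 7, and the lowest was KRT20 or UPK3A, at 4.33 to 5.41. The immune and endothelial lists had medians between 4.42 and 4.85, where the exception was CD68, at 6.81 to 9.90. Of 8 measured fibroblast genes, the matrix gene LUM was at 9.70 in parental RT112 and the others were near the array medians. The array of R1 in drug labelled replicate 3 stood apart in these genes, with a median difference of 0.47 over the 22 glycolytic members from the other R1 arrays in drug, and replicate 2 lay nearly as far the other way, at -0.42. Replicate 1 of parental RT4 was the furthest from its partners over all genes (median absolute difference 0.22). Within R1 in drug, replicate 3 was also the furthest over all genes, at 0.175 against 0.12 for replicate 1 and 0.15 for replicate 2. Counts of calls that rest on these arrays are given with and without them. The share of all genes called with an array left out was not counted, so a shift in such a count is not read as particular to the members. In such bulk cultures, fewer cells of a kind and less RNA per cell cannot be told apart.

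After 24 h of PD173074, most of the glycolytic pathway fell in parental RT112 while several hypoxia-inducible genes rose. Of the 35 measured members, 17 were called lower and 5 higher, beside 13.1% and 11.4% of all genes. All 6 genes of lower glycolysis fell, as did 6 of 10 of upper glycolysis and 3 of 4 of lactate and pyruvate handling. The median log2 difference was -0.87 over the 22 glycolytic members, 0.69 over the 13 oxygen-sensing and hypoxia-inducible members, and 0.01 over all genes. Leaving out 1 array gave 17 calls without parental replicate 2 and 23 without parental replicate 3.

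In drug, R1 and R2 also differed from parental RT112 in many of these genes, and R3 in 1. R1 in drug had 5 members called lower and 3 higher against parental RT112 (6.52% and 5.19% of all genes), and R2 in drug 12 lower and 7 higher (8.91% and 9.08%). R3 in drug had 1, HK2, called lower, where 1.95% of all genes were called in either direction. Over the glycolytic members R1 had a median difference of -0.71, R2 of -0.68 and R3 of -0.31. Over the oxygen-sensing and hypoxia-inducible members R1 had 0.66, R2 0.56 and R3 -0.06. The 3 parental arrays are shared by all of these comparisons and by the acute one, so the values are set side by side and no overlap between them is tested. R1 without its replicate 3 in drug had 17 calls, with GPI, PFKL, ALDOA, TPI1, PGK1, PGAM1, ENO1, PKM and KDM3A added to the 8, 6 without its replicate 2, and 5 without its replicate 1 or without any 1 parental array. R2 had 7 calls without parental replicate 2 and 18 without its own replicate 3, and the call in R3 was lost without any 1 parental array or without its replicate 2. Shares of all genes called with these arrays left out were not counted.

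**Figure D1:**
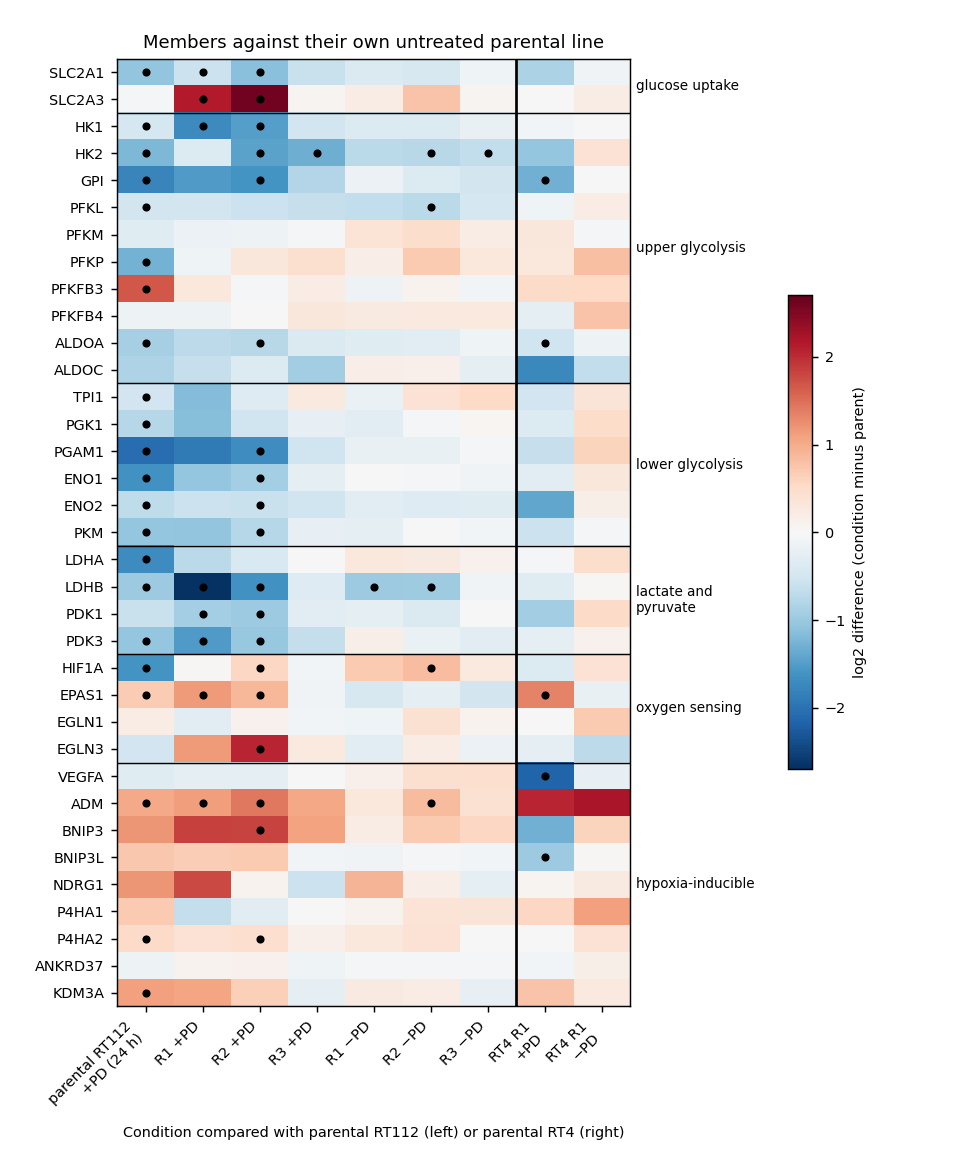
Heat map of the log2 difference of each measured member (rows, grouped by role) from its own untreated parental line in 9 conditions (columns), red for higher and blue for lower than the parent, with a dot where the limma adjusted p was under 0.01. The glycolytic rows are mostly blue in acutely treated RT112 and in R1 and R2 in drug, with 16, 5 and 12 of 22 called lower. Most are paler in R3 and out of drug, although HK2 in R3 in drug and LDHB in R1 and R2 out of drug were among those still called lower.

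The glucose transporters moved in opposite directions. SLC2A1 (GLUT1, the widespread basal transporter) read 11.73, 11.94 and 11.68 in acutely treated RT112, 12.29, 12.21 and 12.31 in R1, 11.97, 11.59 and 11.55 in R2 and 12.28, 12.29 and 12.13 in R3 in drug, against 12.73, 12.92 and 12.87 in parental RT112. Each of these arrays in drug lay below every parental array. SLC2A1 fell by 2.08-fold acutely (log2 -1.06, SE 0.09, adjusted p = 0.00025). It also fell in R1, by a log2 difference of -0.57 (SE 0.08, adjusted p = 0.0046), and more in R2, by -1.14 (SE 0.13, adjusted p = 0.000865). The difference in R3 was -0.61 (95% interval -0.81 to -0.40, adjusted p = 0.0117), not past the threshold, and the call in R1 depended on the arrays used (adjusted p 0.00475 to 0.027 with 1 array left out).

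SLC2A3 (GLUT3, a high-affinity transporter best known from neurons) behaved otherwise. Its signal was 7.05, 6.70 and 6.83 in R1 and 8.13, 7.31 and 6.51 in R2 in drug, with 4.72, 4.66 and 4.63 in acutely treated cells and 4.73, 4.79 and 4.81 in R3 in drug, against 4.75, 4.72 and 4.66 in parental RT112. R1 and R2 stood well above the other arrays listed here, while the acute and R3 arrays stayed at the parental level. SLC2A3 was 4.44-fold higher in R1 (log2 2.15, SE 0.10, adjusted p = 0.000227) and 6.09-fold higher in R2 (log2 2.61, SE 0.36, adjusted p = 0.002). Its acute difference was -0.04 (95% interval -0.19 to 0.11, adjusted p = 0.678), and the call in R2 was lost without parental replicate 2 or 3 (highest adjusted p 0.0114).

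HK1, the housekeeping hexokinase, read 10.13, 10.15 and 10.23 in acutely treated RT112, 8.83, 8.79 and 9.15 in R1, 9.08, 8.96 and 9.41 in R2 and 10.15, 10.06 and 10.16 in R3 in drug, against 10.61, 10.59 and 10.73 in parental RT112. The R1 and R2 arrays were lower than all others. HK1 fell in R1 by 3.29-fold (log2 -1.72, SE 0.12, adjusted p = 0.000511) and in R2 by 2.82-fold (-1.49, SE 0.13, adjusted p = 0.000282), and less acutely (-0.47, SE 0.07, adjusted p = 0.00211). HK2, the inducible and HIF-responsive hexokinase, read 7.78, 7.93 and 8.15 acutely, 8.62, 9.42 and 8.34 in R1, 7.93, 7.48 and 7.72 in R2 and 8.09, 7.72 and 7.68 in R3 in drug, against 9.12, 9.05 and 9.30 in parental RT112. The R1 arrays spread across the parental range and the other drug arrays lay below it. HK2 fell acutely (-1.20, SE 0.12, adjusted p = 0.000318), in R2 (-1.45, SE 0.13, adjusted p = 0.000376) and in R3 (-1.33, SE 0.13, adjusted p = 0.00516), whereas its difference in R1 was -0.36 (95% interval -1.05 to 0.32, adjusted p = 0.425).

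GPI converts glucose 6-phosphate to fructose 6-phosphate. It read 12.51, 12.84 and 12.51 in acutely treated RT112, 12.67, 12.35 and 13.57 in R1, 12.84, 12.28 and 13.25 in R2 and 13.75, 13.66 and 13.39 in R3 in drug, against 14.34, 14.32 and 14.53 in parental RT112. All drug arrays lay below the parental arrays, R3 by the least on average. The fall was 3.43-fold acutely (log2 -1.78, SE 0.11, adjusted p = 8.45e-05) and 3.05-fold in R2 (-1.61, SE 0.23, adjusted p = 0.00223, 0.000537 to 0.0129 with 1 array left out). In R1 the difference of -1.53 missed the threshold (adjusted p = 0.0173) and passed it without R1 replicate 3 (0.000365). Among the phosphofructokinases, which catalyse the committed step, PFKP was 9.50, 9.81 and 9.44 in acutely treated RT112 against 10.92, 10.75 and 10.89 in parental RT112 and fell (-1.27, SE 0.11, adjusted p = 0.000241), with no overlap. PFKL fell acutely by 0.49 (adjusted p = 0.00291, 0.0068 to 0.0127 with 1 array left out), and PFKM was not called against the parental cells in any condition.

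PFKFB3 makes a sugar phosphate that activates phosphofructokinase, and was the 1 glycolytic member that rose acutely. It read 9.05, 9.41 and 9.02 in acutely treated RT112 against 7.42, 7.51 and 7.52 in parental RT112, a 3.2-fold rise (log2 1.68, SE 0.11, adjusted p = 0.000101) with no overlap. R1 in drug gave 8.01, 8.52 and 6.79, R2 7.45, 7.45 and 7.41 and R3 7.41, 7.62 and 8.05, and none of these differences was called. Its paralogue PFKFB4 was not called against parental RT112 in any condition, with means between 5.81 and 6.25 in RT112. The aldolase ALDOA read 6.59, 6.57 and 6.47 in acutely treated cells, 6.67, 6.53 and 7.06 in R1 and 6.69, 6.47 and 6.92 in R2 in drug, against 7.43, 7.32 and 7.60 in parental RT112, with all drug arrays lower. ALDOA fell acutely (-0.91, SE 0.09, adjusted p = 0.00036) and in R2 (-0.76, SE 0.13, adjusted p = 0.00549, 0.00233 to 0.0246 with 1 array left out). ALDOC, the brain-type aldolase, was 6.12, 6.34 and 6.03 acutely against 6.59, 6.88 and 7.51 in parental RT112, and its difference of -0.83 was not called (adjusted p = 0.0268).

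**Figure D2:**
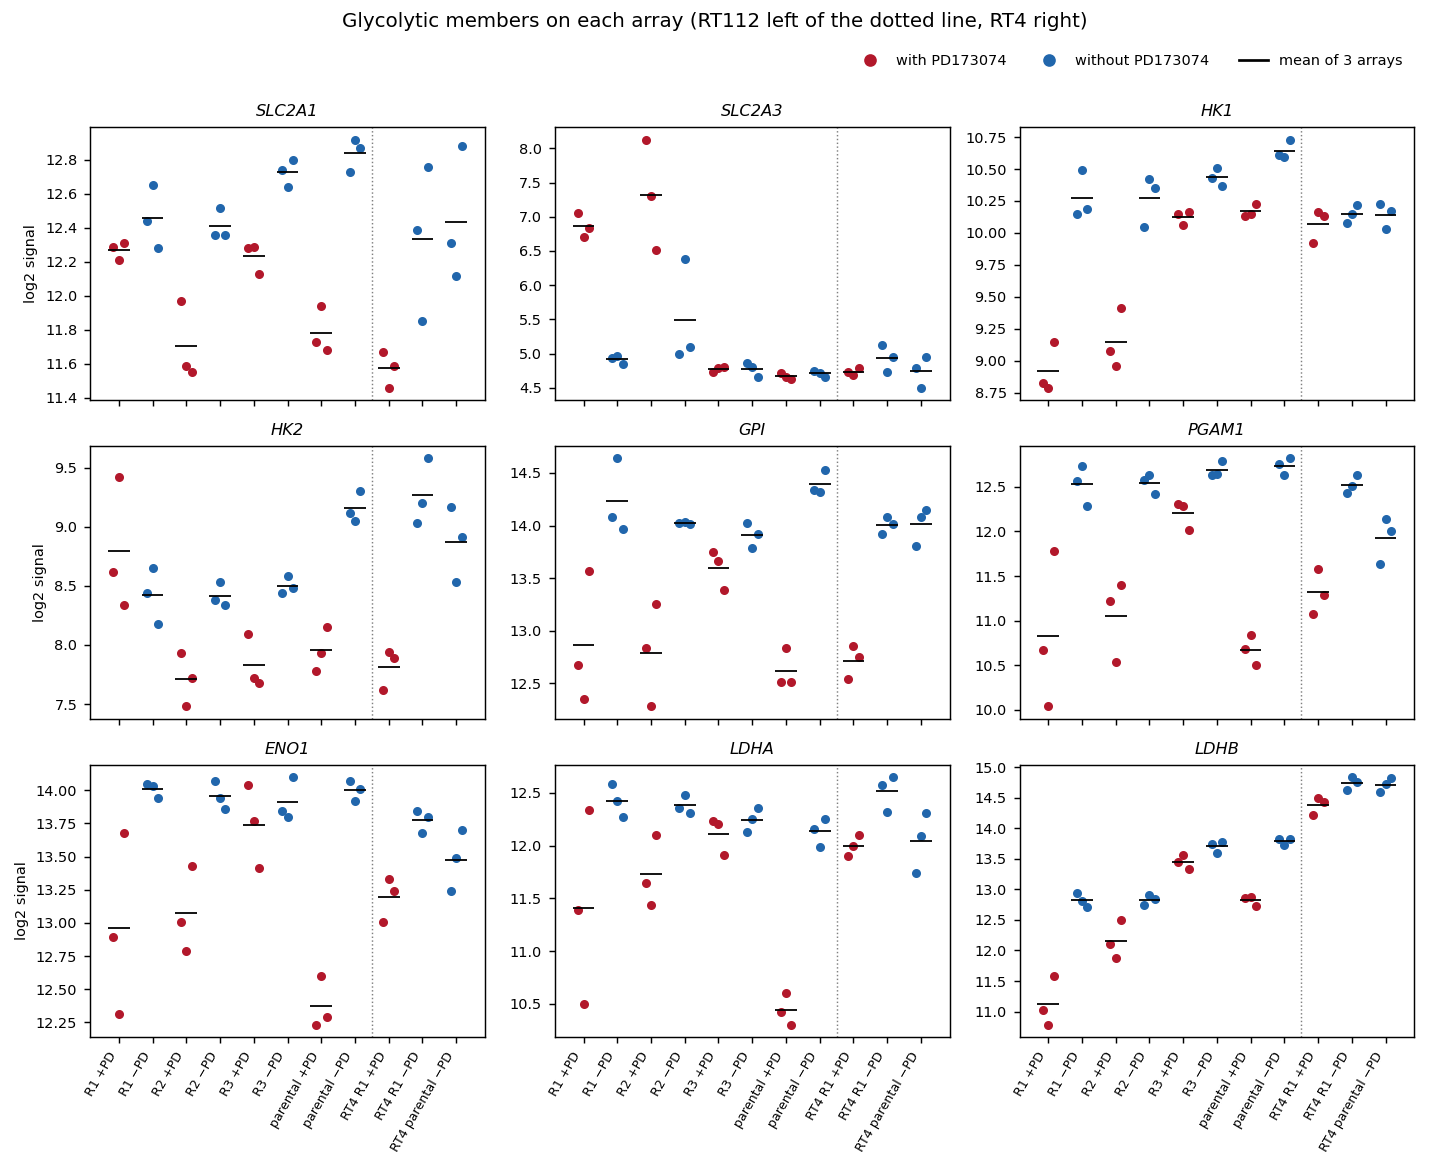
Log2 signal (vertical axis, own scale per panel) of 9 glycolytic members on each of the 33 arrays, in 11 conditions (horizontal axis), red with and blue without PD173074, with a bar at the mean of 3 arrays. HK1 and LDHB are lowest in R1 and R2 in drug, SLC2A3 is raised in the same conditions, and LDHA and ENO1 are lowest in acutely treated RT112, with means of 10.44 and 12.37.

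In lower glycolysis the most marked acute fall was that of PGAM1, the phosphoglycerate mutase. PGAM1 read 10.68, 10.84 and 10.50 in acutely treated RT112, 10.67, 10.04 and 11.78 in R1, 11.22, 10.54 and 11.40 in R2 and 12.31, 12.29 and 12.02 in R3 in drug, against 12.76, 12.63 and 12.82 in parental RT112. Replicate 3 of R1 was more than 1 log2 unit above the other R1 arrays, but all drug arrays were below the parental ones. The acute fall was 4.18-fold (log2 -2.06, SE 0.10, adjusted p = 5.55e-05) and that in R2 3.21-fold (-1.68, SE 0.21, adjusted p = 0.00139). R1 differed by -1.91 (adjusted p = 0.0237, or 0.000597 without replicate 3) and R3 by -0.53 (95% interval -0.78 to -0.28, adjusted p = 0.0298).

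The enolases and pyruvate kinase also fell acutely. ENO1 read 12.23, 12.60 and 12.29 in acutely treated RT112, 12.89, 12.31 and 13.68 in R1 and 13.01, 12.79 and 13.43 in R2 in drug, against 14.07, 13.92 and 14.01 in parental RT112. All of these arrays were below the parental ones, the acute arrays overlapped those of R1, and R1 replicate 3 came closest to the parental level. ENO1 fell acutely by 3.09-fold (log2 -1.63, SE 0.11, adjusted p = 9.88e-05) and in R2 (-0.92, SE 0.16, adjusted p = 0.00511, 0.000518 to 0.0244 with 1 array left out). PKM, which makes pyruvate, read 14.17, 14.42 and 14.07 acutely, 14.20, 13.44 and 14.92 in R1 and 14.55, 14.19 and 14.73 in R2 in drug, against 15.24, 15.15 and 15.38 in parental RT112, with no overlap. PKM fell acutely (-1.04, SE 0.11, adjusted p = 0.000498) and in R2 (-0.77, SE 0.15, adjusted p = 0.00751, 0.00341 to 0.0335 with 1 array left out), and in R1 the difference was -1.07 (95% interval -1.95 to -0.19, adjusted p = 0.0847). The neuronal enolase ENO2 fell acutely by 0.69 (adjusted p = 0.00313) and in R2 by 0.61 (0.009997, a call lost without any 1 array). Its arrays were 6.01, 6.11 and 6.12 in acutely treated RT112 and 6.13, 6.06 and 6.29 in R2 in drug, against 6.61, 6.69 and 7.01 in parental RT112. TPI1 and PGK1 fell acutely (-0.53, adjusted p = 0.00851 and -0.77, adjusted p = 0.00116). The TPI1 call was lost when any 1 array other than replicate 2 of the acute treatment was left out (highest adjusted p 0.0348). TPI1 read 11.04, 11.36 and 11.05 acutely and 10.26, 9.99 and 11.26 in R1 in drug, against 11.64, 11.60 and 11.79 in parental RT112, and no array of either reached the parental range.

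At the end of the pathway the lactate dehydrogenase subunits parted. LDHA, the subunit of muscle and tumours, read 10.42, 10.60 and 10.30 in acutely treated RT112, 11.39, 10.50 and 12.34 in R1, 11.65, 11.44 and 12.10 in R2 and 12.23, 12.20 and 11.91 in R3 in drug, against 12.16, 11.99 and 12.25 in parental RT112. The acute arrays lay far below the parental range, whereas 1 R1, 1 R2 and 2 R3 arrays reached it. LDHA fell acutely by 3.23-fold (log2 -1.69, SE 0.11, adjusted p = 7.94e-05) and was called against parental cells in no derivative (-0.72, 95% interval -1.81 to 0.36, adjusted p = 0.316 in R1 and -0.40, 95% interval -0.81 to 0.00, adjusted p = 0.124 in R2). LDHB, the heart-type subunit, read 12.86, 12.88 and 12.72 acutely, 11.03, 10.78 and 11.58 in R1, 12.10, 11.87 and 12.50 in R2 and 13.44, 13.56 and 13.34 in R3 in drug, against 13.83, 13.73 and 13.83 in parental RT112. R1 was lowest, R2 next, and all drug arrays lay below the parental ones. LDHB fell by 6.35-fold in R1 (log2 -2.67, SE 0.20, adjusted p = 0.000755), 3.12-fold in R2 (-1.64, SE 0.16, adjusted p = 0.000454) and 1.97-fold acutely (-0.98, SE 0.07, adjusted p = 0.000139), and all of these calls held without any 1 array.

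Pyruvate dehydrogenase kinases restrain entry of pyruvate into the mitochondria, and the members PDK1 and PDK3 fell. PDK3 read 8.23, 8.24 and 8.14 acutely, 7.75, 7.39 and 8.04 in R1 and 8.28, 7.89 and 8.55 in R2 in drug, against 9.01, 9.25 and 9.51 in parental RT112, with no overlap. PDK3 fell in acutely treated cells (-1.05, SE 0.13, adjusted p = 0.000812). R1 had a wider fall (-1.53, SE 0.20, adjusted p = 0.00407), and R2 a fall close to the acute one (-1.02, SE 0.19, adjusted p = 0.00742). PDK1, a standard HIF1A target, read 8.30, 8.20 and 8.11 acutely, 7.78, 7.83 and 8.05 in R1 and 8.04, 7.65 and 7.78 in R2 in drug, against 8.63, 8.70 and 9.11 in parental RT112, again with no overlap. PDK1 fell in R1 (-0.93, SE 0.15, adjusted p = 0.00847) and R2 (-0.99, SE 0.16, adjusted p = 0.00352), while the acute difference of -0.61 was not called (adjusted p = 0.0115). With 1 array left out, the adjusted p of PDK1 ran 0.00549 to 0.0386 in R1 and 0.0075 to 0.0147 in R2, and that of PDK3 0.00149 to 0.024 in R1 and 0.00364 to 0.0296 in R2.

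The transcripts of the hypoxia-inducible factor subunits went opposite ways acutely. HIF1A read 13.79, 13.82 and 13.57 in acutely treated RT112, 15.42, 14.44 and 16.25 in R1, 15.87, 15.89 and 15.91 in R2 and 15.66, 15.43 and 14.72 in R3 in drug, against 15.45, 15.12 and 15.43 in parental RT112. The acute arrays were below every other array, R2 lay above the parental range, and R1 and R3 spread across it. HIF1A fell acutely by 3.05-fold (log2 -1.61, SE 0.12, adjusted p = 0.000122) and rose in R2 (0.56, SE 0.10, adjusted p = 0.00707), a call that was lost without any 1 array. EPAS1 read 13.61, 13.98 and 13.67 acutely, 14.29, 14.23 and 14.14 in R1, 14.35, 13.87 and 13.69 in R2 and 12.70, 12.94 and 13.27 in R3 in drug, against 13.07, 13.02 and 13.10 in parental RT112. All acute, R1 and R2 arrays were above the parental ones, and R3 overlapped them. EPAS1 rose acutely (0.69, SE 0.11, adjusted p = 0.0024, 0.00218 to 0.0122 with 1 array left out), in R1 by 2.23-fold (1.16, SE 0.07, adjusted p = 0.000403) and in R2 (0.91, SE 0.16, adjusted p = 0.00607, 0.0025 to 0.0262), and its difference in R3 was -0.09 (95% interval -0.44 to 0.26, adjusted p = 0.731).

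EGLN3, a hydroxylase that is itself induced by hypoxia, read 7.30, 6.48 and 7.91 in R1 and 8.68, 8.08 and 7.64 in R2 in drug, with 5.67, 5.57 and 5.48 in acutely treated cells, against 5.73, 6.16 and 6.36 in parental RT112. All R1 and R2 arrays were above the parental range, with 1 R1 array inside the range of R2, and the acute arrays were below the parental ones. EGLN3 rose 4.14-fold in R2 (log2 2.05, SE 0.28, adjusted p = 0.00178), whereas R1 gave 1.15 (95% interval 0.22 to 2.07, adjusted p = 0.0796). EGLN1, the main oxygen sensor, was called in no comparison within RT112.

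Among hypoxia-inducible genes, ADM (adrenomedullin, a secreted vasodilator peptide) was called higher in each of these conditions except R3, where it missed the threshold. ADM read 7.29, 7.44 and 7.38 acutely, 7.44, 7.43 and 7.55 in R1, 7.99, 7.81 and 7.52 in R2 and 7.79, 7.13 and 7.21 in R3 in drug, against 6.17, 6.39 and 6.46 in parental RT112. Every drug array was above every parental array. It rose acutely by 1.03 (SE 0.09, adjusted p = 0.00027) on the log2 scale. The rise was 1.13 (SE 0.10, adjusted p = 0.00101) in R1, and R2 showed the widest at 1.43 (SE 0.14, adjusted p = 0.000492). All 3 calls held without any 1 array, and R3 differed by 1.04 (95% interval 0.58 to 1.49, adjusted p = 0.0243). KDM3A, a histone H3 lysine 9 demethylase, read 8.62, 8.67 and 8.77 acutely, 8.73, 8.93 and 8.25 in R1 and 8.44, 8.41 and 7.80 in R2 in drug, against 7.30, 7.55 and 7.86 in parental RT112. It rose acutely (1.12, SE 0.14, adjusted p = 0.000975), was not called in R1 (1.07, adjusted p = 0.0185, or 0.00371 without replicate 3), and overlapped the parental range in R2.

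BNIP3 and BNIP3L mark mitochondria for removal. BNIP3 read 8.11, 8.02 and 8.21 acutely, 8.93, 8.43 and 8.93 in R1, 8.89, 8.78 and 8.56 in R2 and 8.14, 8.08 and 7.75 in R3 in drug, against 6.29, 6.85 and 7.60 in parental RT112. All drug arrays were higher than all parental ones, but the parental arrays themselves spread over more than 1 log2 unit. BNIP3 rose 3.56-fold in R2 (log2 1.83, SE 0.30, adjusted p = 0.00426, 0.0017 to 0.0229 with 1 array left out), and its other differences were 1.20 (adjusted p = 0.0188) acutely, 1.85 (adjusted p = 0.0131) for R1, and 1.08 (adjusted p = 0.0888) for R3, none of them called. BNIP3L differed by 0.72 acutely, 0.66 in R1 and 0.71 in R2, and NDRG1 by 1.20, 1.79 and 0.10, none of them called. VEGFA, the angiogenic growth factor, was called in no RT112 condition against the parental cells, with differences between -0.33 and 0.44. P4HA2, a collagen prolyl hydroxylase, rose acutely by 0.52 (adjusted p = 0.00332) and in R2 by 0.46 (0.00739), the first lost without 4 of the 6 arrays in turn and the second without any 1 array (highest adjusted p 0.0154 and 0.0312). P4HA1 and ANKRD37 were called in none of the 17 comparisons. LUM, the fibroblast gene noted above, was at 11.94 acutely, 13.43 in R1 and 12.86 in R2 in drug, against 9.70 in parental RT112, while the median of the fibroblast list was 4.64, 4.90 and 4.99 against 4.64. Called higher among the 8 fibroblast genes were LUM and DCN in all 3 of these conditions (DCN by 0.29, 1.78 and 1.78) and FAP in R2 (0.74), and none was called lower. Whether this bears on the hypoxia-inducible genes was not tested.

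**Figure D3:**
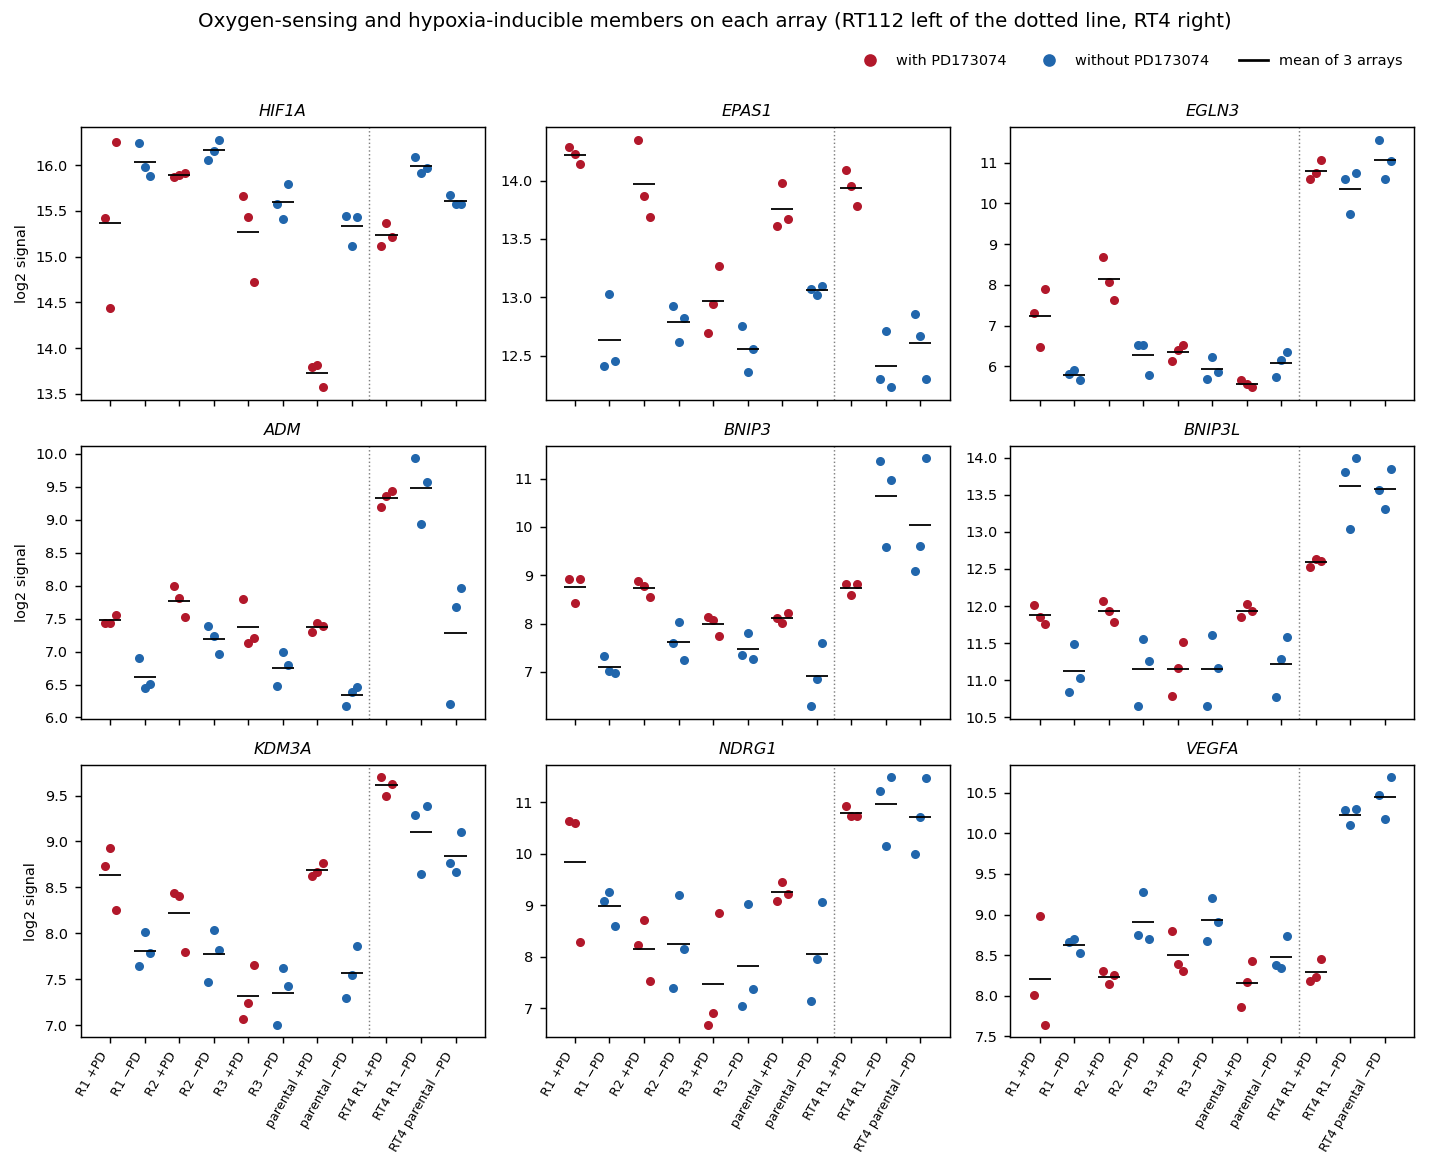
Log2 signal (vertical axis, own scale per panel) of 9 oxygen-sensing and hypoxia-inducible members on each of the 33 arrays in 11 conditions (horizontal axis), red with and blue without PD173074, with a bar at the mean of 3 arrays. EPAS1 is raised in every condition with drug except R3, where the mean was 12.97, while EGLN3, BNIP3, BNIP3L and VEGFA stand lower in untreated RT112 than in untreated RT4.

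After 4 to 6 passages out of drug, few members differed from parental RT112. R1 out of drug had 1 call, LDHB, beside 1.45% of all genes. R2 had 5 calls beside 6.87% of all genes, with LDHB, HK2 and PFKL lower and HIF1A and ADM higher. R3 had 1, HK2, beside 3.18% of all genes. LDHB read 12.94, 12.81 and 12.71 in R1 and 12.75, 12.91 and 12.84 in R2 out of drug, against 13.83, 13.73 and 13.83 in parental RT112, with no overlap, and fell by 1.97-fold in R1 (log2 -0.98, SE 0.09, adjusted p = 0.00271) and 1.95-fold in R2 (-0.96, SE 0.07, adjusted p = 0.000989). R3 out of drug gave 13.75, 13.60 and 13.77, reaching the parental level. HK2 read 8.38, 8.53 and 8.34 in R2 and 8.44, 8.58 and 8.48 in R3 out of drug, against 9.12, 9.05 and 9.30 in parental RT112, below every parental array. It fell in R2 (-0.74, SE 0.09, adjusted p = 0.00384) and R3 (-0.66, SE 0.09, adjusted p = 0.00679). HK2 in R1 out of drug read 8.44, 8.65 and 8.18, also below every parental array. Its mean there was 8.42 against 9.16 in parental RT112, but the difference was not called.

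HIF1A read 16.06, 16.16 and 16.28 in R2 out of drug and 16.24, 15.98 and 15.88 in R1 out of drug, against 15.45, 15.12 and 15.43 in parental RT112, all above the parental arrays. It rose in R2 (0.83, SE 0.11, adjusted p = 0.00486) and missed the threshold in R1 (0.70, adjusted p = 0.0262). ADM in R2 out of drug read 7.39, 7.24 and 6.96 against 6.17, 6.39 and 6.46 in parental RT112 and rose (0.86, SE 0.13, adjusted p = 0.00757), and PFKL fell in R2 (-0.73, SE 0.09, adjusted p = 0.00389). PFKL in R1 and R3 out of drug also lay below the parental arrays, with means of 9.38 and 9.58 against 10.05 in parental RT112, and was not called. The calls out of drug rest on few arrays. Without parental replicate 3 none of the 5 in R2 was called, without its own replicate 1 there were 3, the call in R1 was lost without any 1 parental array or without R1 replicate 3, and that in R3 was lost without any 1 array. Same-numbered arrays of R3 out of drug and parental RT112 deviated together, and with the replicate number as a block R3 had 0 calls.

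Setting each derivative in drug against itself out of drug uses no parental array. R1 had 5 members called (beside 5.68% of all genes), R2 had 6 (10.2%) and R3 had 0 (0%). For R3, limma gave 16 members and 1767 genes at an unadjusted p under 0.05, and the methods' t-test called 0 members after adjustment. Over the glycolytic members R1 had a median difference of -0.74, R2 of -0.63 and R3 of -0.27. Of the 22 glycolytic members, 18, 20 and 18 were below zero in R1, R2 and R3, whether or not they were called. The share of all genes below zero was not counted, and the median over all genes was -0.03, -0.01 and -0.01.

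SLC2A3 read 7.05, 6.70 and 6.83 in R1 in drug against 4.93, 4.97 and 4.85 in R1 out of drug and rose (1.94, SE 0.12, adjusted p = 0.000588), a call that held without any 1 array. R2 read 8.13, 7.31 and 6.51 in drug against 5.0, 6.38 and 5.09 out of drug, with 1 array out of drug close to the drug range, and the difference was not called (1.83, adjusted p = 0.0412). HK1 fell in R1, at 8.83, 8.79 and 9.15 in drug against 10.15, 10.49 and 10.19 out of drug (-1.35, SE 0.15, adjusted p = 0.00315), and in R2, at 9.08, 8.96 and 9.41 in drug against 10.05, 10.42 and 10.35 out of drug (-1.12, SE 0.15, adjusted p = 0.00415). Neither pair overlapped, and in R3 the difference was -0.31 (95% interval -0.49 to -0.13, adjusted p = 0.328). LDHB fell in R1 in drug, compared with its level of 12.82 out of drug, by 1.69 (SE 0.21, adjusted p = 0.00473).

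EPAS1 rose in drug in both R1 and R2. It read 14.29, 14.23 and 14.14 in R1 in drug against 12.41, 13.03 and 12.46 out of drug (1.59, SE 0.18, adjusted p = 0.00357), and 14.35, 13.87 and 13.69 in R2 in drug against 12.93, 12.62 and 12.82 out of drug (1.18, SE 0.18, adjusted p = 0.00583). The arrays did not overlap in either line, and R3 gave 0.41 (95% interval -0.00 to 0.82, adjusted p = 0.64). BNIP3 rose in R1, with 8.93, 8.43 and 8.93 in drug against 7.32, 7.02 and 6.98 out of drug (1.66, SE 0.18, adjusted p = 0.00298), and in R2, with 8.89, 8.78 and 8.56 in drug against 7.60, 8.03 and 7.24 out of drug (1.12, SE 0.20, adjusted p = 0.009991). EGLN3 rose in R2, with 8.68, 8.08 and 7.64 in drug against 6.52, 6.52 and 5.79 out of drug (1.86, SE 0.31, adjusted p = 0.00733). None of these groups overlapped. R2 also had PGAM1 and PFKM called lower, PGAM1 at 11.22, 10.54 and 11.40 in drug against 12.58, 12.63 and 12.42 out of drug (-1.49, SE 0.22, adjusted p = 0.00518) and PFKM by 0.60 (adjusted p = 0.00685).

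The count in R1 was 15 without replicate 3 in drug, with GPI, TPI1, PGK1, PGAM1, ENO1, LDHA, PDK1, PDK3, NDRG1 and KDM3A added, 3 without replicate 2 in drug, and 1 without its replicate 1 in drug or without replicate 1 or 3 out of drug. The count in R2 was 10 without replicate 3 in drug and 0 without replicate 1 in drug or replicate 3 out of drug. For these counts the share of all genes was not counted. The calls in lower glycolysis in R1 changed with its replicate 3 in drug and with the fit: 1 fit over all RT112 arrays called TPI1, PGK1, PGAM1 and ENO1 with that array kept. In R1 in drug, PGAM1 was 11.78 on that array against 10.67 and 10.04 on the others, LDHA 12.34 against 11.39 and 10.50, and NDRG1 8.29 against 10.64 and 10.59.

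**Figure D4:**
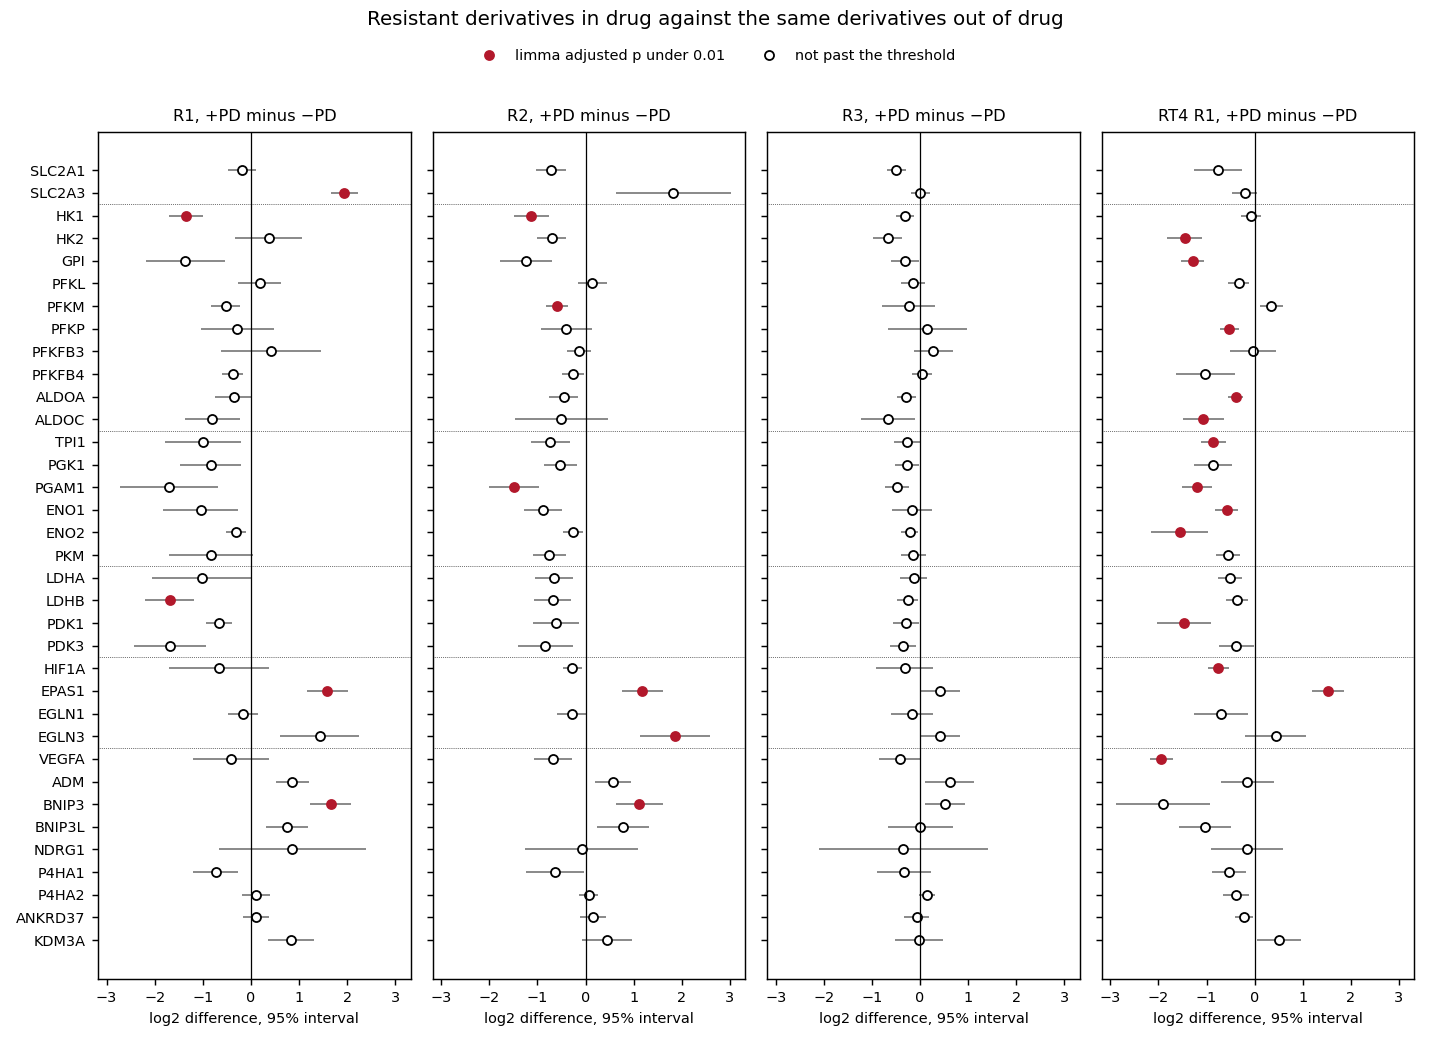
Log2 difference in drug minus out of drug (horizontal axis) for each measured member (rows, in role order) in R1, R2, R3 and RT4 R1, with the 95% interval of limma as a line and a filled point where the adjusted p was under 0.01. Glycolytic members lie mostly left of zero in all 4 derivatives, with medians of -0.74, -0.63, -0.27 and -0.57, and EPAS1 is called to the right in R1, R2 and RT4 R1.

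The acute response of parental RT112 and these responses share no array. Of the 35 members, 28 had the same sign acutely and in R1 in against out of drug (61.2% of all genes did), 27 in R2 (67.1%), 27 in R3 (57.5%) and 25 in RT4 R1 (61.7%). Of the 22 glycolytic members, 18, 19, 18 and 20 were below zero in both responses, a count that was not made over all genes. Across the 35 members, Pearson's r with the acute response was 0.67 for R1, 0.57 for R2, 0.56 for R3 and 0.31 for RT4 R1. Genes are not independent replicates, so these are descriptions.

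The derivatives in drug were also compared directly, with R3 as the reference, since a call in R1 or R2 and none in R3 does not show a difference. R1 against R3 gave 4 calls (beside 4.77% of all genes) and R2 against R3 gave 2 (3.15%). SLC2A3 was higher in R1, at 7.05, 6.70 and 6.83 against 4.73, 4.79 and 4.81 in R3 (2.08, SE 0.11, adjusted p = 0.00114). HK1 was lower in R1, at 8.83, 8.79 and 9.15, and in R2, at 9.08, 8.96 and 9.41, against 10.15, 10.06 and 10.16 in R3 (-1.20, SE 0.12, adjusted p = 0.00375 and -0.97, SE 0.13, adjusted p = 0.00775). LDHB was lower in R1, at 11.03, 10.78 and 11.58, and in R2, at 12.10, 11.87 and 12.50, against 13.44, 13.56 and 13.34 in R3 (-2.32, SE 0.21, adjusted p = 0.00329 and -1.29, SE 0.17, adjusted p = 0.00747). EPAS1 was higher in R1, at 14.29, 14.23 and 14.14, against 12.70, 12.94 and 13.27 in R3 (1.25, SE 0.15, adjusted p = 0.00684). In none of these did the arrays overlap. SLC2A3 and EGLN3 in R2 missed the threshold against R3 (2.54, adjusted p = 0.0112 and 1.79, adjusted p = 0.0112). The count for R1 was 8 without R1 replicate 3, 1 without R1 replicate 1 or 2, and 0 without R3 replicate 1 or 2. That for R2 was 4 without R2 replicate 3 and 0 without any 1 of the other 5 arrays.

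In RT4 the derivative was compared with its own parent. RT4 R1 in drug had 5 members called (beside 5.86% of all genes), with GPI, ALDOA, VEGFA and BNIP3L lower and EPAS1 higher. VEGFA read 8.18, 8.23 and 8.45 in RT4 R1 in drug against 10.47, 10.18 and 10.69 in parental RT4, a 4.47-fold fall (log2 -2.16, SE 0.15, adjusted p = 0.000381) that held without any 1 array. GPI read 12.54, 12.85 and 12.75 in drug against 13.81, 14.08 and 14.15 in parental RT4 and fell 2.46-fold (-1.30, SE 0.13, adjusted p = 0.00156). EPAS1 read 14.09, 13.95 and 13.78 in drug against 12.86, 12.67 and 12.30 in parental RT4 and rose (1.33, SE 0.16, adjusted p = 0.00314). These 3 genes showed no overlap between the groups. BNIP3L, at 12.52, 12.64 and 12.61 in drug against 13.56, 13.31 and 13.85 in parental RT4, fell (-0.98, SE 0.15, adjusted p = 0.00612), and ALDOA, at 6.66, 6.68 and 6.68 in drug against 7.20, 7.14 and 7.28 in parental RT4, fell (-0.53, SE 0.09, adjusted p = 0.00857). ADM read 9.19, 9.36 and 9.44 in drug against 6.20, 7.68 and 7.97 in parental RT4, higher on every array but not called (2.05, adjusted p = 0.0221), with parental replicate 1 far below its partners. Leaving out that array gave 10 calls, ALDOC, PKM, PDK1, ADM and HK2 joining, and leaving out RT4 R1 in drug replicate 3 gave 1.

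Out of drug, RT4 R1 had 0 members called against parental RT4, where 0.966% of all genes were called. With limma, 8 of the 35 members and 4434 of the 22465 genes had an unadjusted p under 0.05, and the methods' t-test called 0 members after adjustment. The median difference of RT4 R1 out of drug was 0.24 over the members, with 26 of 35 above zero, and 0.02 over all genes. ADM differed by 2.20 (95% interval 1.05 to 3.34, adjusted p = 0.0535). RT4 R1 out of drug had the highest mean of all 11 conditions in 17 of the 35 members. This count was not made over all genes and mixes both cell lines, so it is not read as a trait of the derivative.

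Against itself out of drug, RT4 R1 in drug had 12 members called lower and 1 higher, beside 5.74% and 4.79% of all genes. Of the 22 glycolytic members, 10 fell, the hexokinase HK2, GPI, PFKP, both aldolases, TPI1, PGAM1, both enolases and PDK1, and HIF1A and VEGFA fell with them. HK2 read 7.62, 7.94 and 7.89 in drug against 9.03, 9.20 and 9.58 out of drug (-1.45, SE 0.16, adjusted p = 0.00105). GPI read 12.54, 12.85 and 12.75 in drug against 13.92, 14.08 and 14.01 out of drug (-1.29, SE 0.10, adjusted p = 0.000272). PGAM1 read 11.08, 11.58 and 11.29 in drug against 12.43, 12.51 and 12.63 out of drug (-1.21, SE 0.13, adjusted p = 0.00117). All 3 were lower in drug on every array. ENO2 read 6.73, 6.98 and 7.05 in drug against 8.96, 7.91 and 8.56 out of drug (-1.56, SE 0.25, adjusted p = 0.0053). PDK1 read 8.51, 8.56 and 8.59 in drug against 10.16, 9.43 and 10.46 out of drug (-1.46, SE 0.24, adjusted p = 0.00568). For both, replicate 2 was the lowest array out of drug, and with 1 array left out the adjusted p ran 0.00127 to 0.0242 for ENO2 and 0.000493 to 0.026 for PDK1. TPI1, at 11.78, 12.17 and 11.99 in drug against 12.88, 12.76 and 12.87 out of drug, fell by 0.86 (SE 0.11, adjusted p = 0.00209). ALDOC, at 5.64, 5.68 and 5.68 in drug against 6.98, 6.29 and 6.93 out of drug, fell by 1.07 (SE 0.18, adjusted p = 0.00627).

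HIF1A in RT4 R1 read 15.12, 15.37 and 15.22 in drug against 16.09, 15.91 and 15.97 out of drug and fell (-0.75, SE 0.09, adjusted p = 0.00174), while EPAS1 read 14.09, 13.95 and 13.78 in drug against 12.30, 12.71 and 12.23 out of drug and rose (1.53, SE 0.14, adjusted p = 0.000635). VEGFA read 8.18, 8.23 and 8.45 in drug against 10.28, 10.10 and 10.30 out of drug and fell 3.84-fold (-1.94, SE 0.10, adjusted p = 6.63e-05). None of the 3 overlapped. BNIP3, at 8.81, 8.59 and 8.81 in drug against 11.36, 9.58 and 10.98 out of drug, was not called (-1.90, adjusted p = 0.0179). The smaller falls were those of PFKP (-0.52, adjusted p = 0.00601), ENO1 (-0.58, adjusted p = 0.00738) and ALDOA (-0.39, adjusted p = 0.00567), each of which lost its call without some arrays. PFKP read 10.17, 10.39 and 10.26 in drug against 10.86, 10.70 and 10.83 out of drug, ENO1 13.01, 13.33 and 13.24 in drug against 13.84, 13.68 and 13.80 out of drug, and ALDOA 6.66, 6.68 and 6.68 in drug against 7.05, 7.04 and 7.11 out of drug, with no overlap. The count was 18 without replicate 2 out of drug and 5 without replicate 3 in drug.

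The untreated parents differed most in the hypoxia-inducible genes. Parental RT112 against parental RT4 had 11 members called lower and 3 higher, beside 10.1% and 8.68% of all genes. Of the 13 oxygen-sensing and hypoxia-inducible members, 7 were lower in RT112 and 0 higher, and their median difference was -1.27. EGLN3 read 5.73, 6.16 and 6.36 in RT112 against 11.57, 10.61 and 11.04 in RT4, 31.8-fold lower in RT112 (log2 -4.99, SE 0.27, adjusted p = 3.50e-05). BNIP3 read 6.29, 6.85 and 7.60 in RT112 against 9.08, 9.61 and 11.42 in RT4 (-3.12, SE 0.62, adjusted p = 0.00852). NDRG1 read 7.13, 7.96 and 9.07 in RT112 against 9.99, 10.71 and 11.47 in RT4 (-2.67, SE 0.54, adjusted p = 0.00963). None of the 3 overlapped, although BNIP3 and NDRG1 spread widely within both lines. BNIP3L read 10.77, 11.29 and 11.59 in RT112 against 13.56, 13.31 and 13.85 in RT4 (-2.36, SE 0.23, adjusted p = 0.000412). VEGFA read 8.38, 8.34 and 8.73 in RT112 against 10.47, 10.18 and 10.69 in RT4 (-1.96, SE 0.17, adjusted p = 0.000231). Both held without any 1 array. KDM3A and EGLN1 were also lower in RT112 (-1.27, adjusted p = 0.00184 and -1.01, adjusted p = 0.00231), with KDM3A at 7.30, 7.55 and 7.86 in RT112 against 8.76, 8.67 and 9.10 in RT4 and EGLN1 at 9.18, 9.51 and 9.64 in RT112 against 10.54, 10.27 and 10.55 in RT4. No array of RT112 reached those of RT4 in either gene.

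Glycolytic members differed in both directions between the parents. HK1, PFKFB3 and PGAM1 were higher in RT112 (0.50, adjusted p = 0.0076, 0.92, adjusted p = 0.00237 and 0.81, adjusted p = 0.00562). HK1 read 10.61, 10.59 and 10.73 in RT112 against 10.23, 10.03 and 10.17 in RT4, and PFKFB3 7.42, 7.51 and 7.52 in RT112 against 6.48, 6.37 and 6.84 in RT4. PGAM1 read 12.76, 12.63 and 12.82 in RT112 against 11.64, 12.14 and 12.01 in RT4. The lines did not overlap in these genes. ENO2, PFKFB4, LDHB and TPI1 were lower in RT112 (-1.55, adjusted p = 0.0067, -1.04, adjusted p = 0.00262, -0.92, adjusted p = 0.000555 and -0.81, adjusted p = 0.00791). PFKFB4 read 5.90, 6.01 and 5.95 in RT112 against 7.09, 6.65 and 7.23 in RT4, and LDHB 13.83, 13.73 and 13.83 in RT112 against 14.59, 14.73 and 14.82 in RT4. ENO2 read 6.61, 6.69 and 7.01 in RT112 against 8.69, 7.63 and 8.64 in RT4, and TPI1 11.64, 11.60 and 11.79 in RT112 against 12.15, 12.62 and 12.69 in RT4. In all 4 genes the arrays of the lines were apart. The median difference over the 22 glycolytic members was 0.09. There were 17 calls without RT4 replicate 1, with PFKP, PDK1, ADM and P4HA1 among those added, and 4 without RT112 replicate 2.

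**Figure D5:**
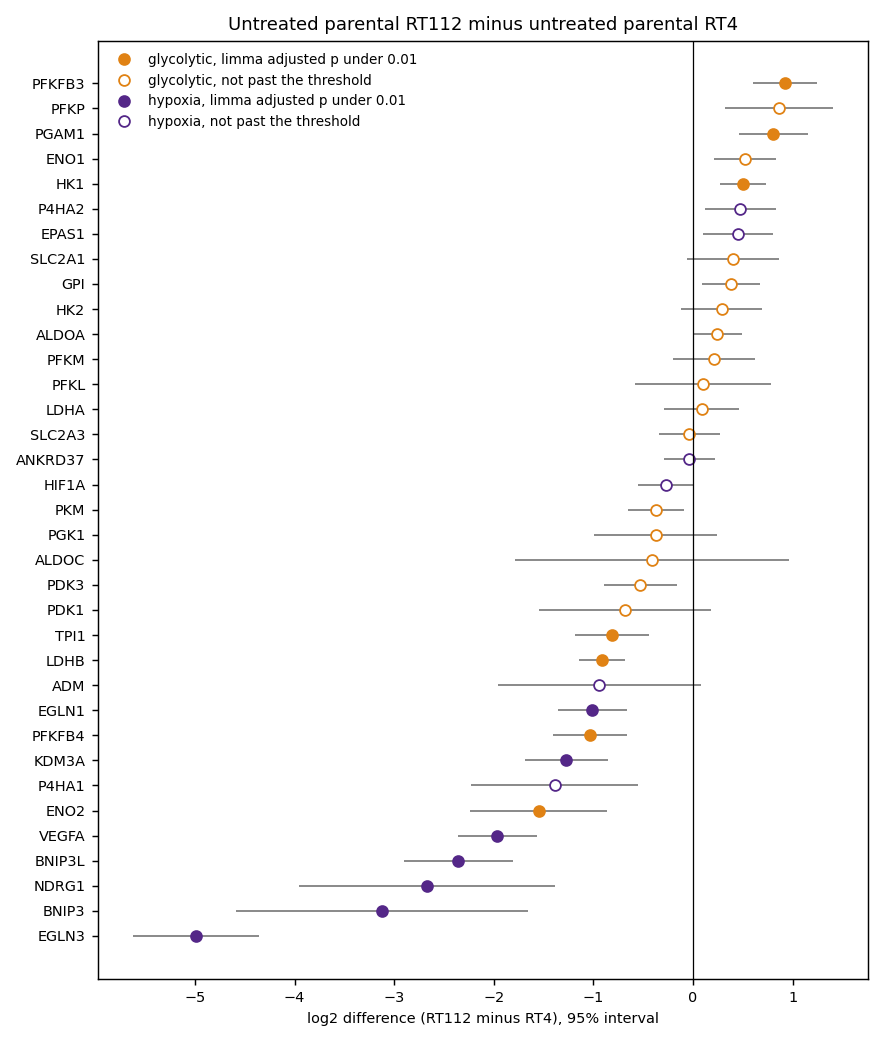
Log2 difference of untreated parental RT112 minus untreated parental RT4 (horizontal axis) for each measured member (rows, ordered by size), with limma's 95% interval, filled where the adjusted p was under 0.01. The 5 lowest are oxygen-sensing or hypoxia-inducible members (purple), down to EGLN3 at -4.99, and glycolytic members (orange) lie on both sides of zero.

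Whether the change in drug differed between the cell lines was tested as 1 contrast on 12 arrays, the change of RT112 R1 in drug from its parent minus that of RT4 R1 in drug from its parent. It called 6 members, beside 7.76% of all genes. SLC2A3 differed by 2.16 (SE 0.17, adjusted p = 2.15e-05), with a change of 2.15 in RT112 R1 and -0.01 in RT4 R1. LDHB differed by -2.33 (SE 0.24, adjusted p = 0.000134), with -2.67 in RT112 R1 and -0.33 in RT4 R1, and HK1 by -1.65 (SE 0.16, adjusted p = 8.43e-05), with -1.72 in RT112 R1 and -0.07 in RT4 R1. The SLC2A3 rise and the LDHB and HK1 falls were thus larger in RT112 R1. VEGFA differed by 1.89 (SE 0.40, adjusted p = 0.00943) and BNIP3L by 1.64 (SE 0.27, adjusted p = 0.00244), with changes of -0.27 and 0.66 in RT112 R1 and -2.16 and -0.98 in RT4 R1. PDK3 differed by -1.26 (SE 0.24, adjusted p = 0.00524). With 1 array left out the adjusted p ran 0.00122 to 0.0163 for PDK3 and 0.00152 to 0.0269 for VEGFA. EPAS1, which rose in both lines, had a change of 1.16 in RT112 R1 and 1.33 in RT4 R1 and a difference of -0.17 (95% interval -0.59 to 0.24, adjusted p = 0.598). Without RT112 R1 in drug replicate 3 there were 9 calls, TPI1, PGAM1 and ENO1 joining, and 4 without any 1 of 6 other arrays, with parental RT112 replicate 2 or 3, R1 in drug replicate 1 or any RT4 R1 array in drug left out. There were 6 calls without R1 in drug replicate 2 and 5 without parental RT4 replicate 1.

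In some conditions hypoxia-inducible members varied more between arrays than the median of all genes did. The SD was not compared with that of genes of similar signal. In parental RT112 the median SD over the 3 arrays was 0.28 for the 9 hypoxia-inducible genes, 0.11 for the 22 glycolytic genes and 0.10 for all genes. All 9 hypoxia-inducible genes were highest on parental replicate 3, and 7 were lowest on replicate 1. In RT4 R1 out of drug the medians were 0.41, 0.17 and 0.11, with 8 of 9 lowest on replicate 2. In acutely treated RT112 and in RT4 R1 in drug the median SD of the hypoxia-inducible genes was 0.095 and 0.12, beside 0.11 for all genes in both. NDRG1, a stress-responsive gene, had the widest spread of any member in 5 conditions, at 7.13, 7.96 and 9.07 in parental RT112 and 7.05, 9.03 and 7.38 in R3 out of drug. In R1 in drug the glycolytic genes spread more, with a median SD of 0.42 beside 0.15 for all genes, 18 of 22 being highest on replicate 3. Their median SD also exceeded that of the hypoxia-inducible genes in parental RT4 (0.29 against 0.27) and in R2 in drug (0.235 against 0.145). Counts of genes highest or lowest on 1 array were not made over all genes.

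Other genes of the pathways were counted from lists of 42 glycolysis and pyruvate genes (38 measured) and 55 hypoxia genes (49 measured). Acutely, 8 of the first list rose and 9 fell, and 12 of the second rose and 7 fell, where 11.4% of all genes rose and 13.1% fell. In R1 in drug, 2 of the first list rose and 9 fell, and 5 of the second rose and 5 fell, beside 5.19% and 6.52% of all genes. In R2 in drug these counts were 7 and 7 for the first and 8 and 8 for the second, beside 9.08% and 8.91%. R3 in drug had 1 of the first and 3 of the second called, beside 1.95% of all genes. RT4 R1 in drug had 7 of the first and 4 of the second called against parental RT4, beside 5.86% of all genes. Between the parents, 5 of the first list were higher and 6 lower in RT112, and 3 of the second higher and 17 lower, beside 8.68% and 10.1% of all genes. BPGM, which diverts a glycolytic intermediate to bisphosphoglycerate, rose by 2.20 acutely, 2.80 in R1 in drug and 3.07 in R2 in drug against parental RT112, and by 2.91 in RT4 R1 in drug against parental RT4. PDK4, the kinase of pyruvate dehydrogenase that is induced by fasting, rose acutely by 3.89 (adjusted p = 0.00013), and its relative PDK2 rose by 1.48 in R1 in drug against parental RT112 (adjusted p = 0.000898). DLAT, a core subunit of the pyruvate dehydrogenase complex, had differences of -2.52 in R1 in drug, -1.56 in R2 in drug and -1.48 in RT4 R1 in drug, all called. SLC2A12, a further glucose transporter, rose by 2.90 acutely, 2.18 in R2 in drug and 2.43 in RT4 R1 in drug.

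In the hypoxia list the most marked rises were those of STC1 (stanniocalcin, a secreted hormone), at 10.26 in R1 and 9.66 in R2 in drug against 4.34 in parental RT112, and of CITED2, which competes with HIF1A for its coactivators, at 12.77 in R1 and 11.67 in R2 in drug against 8.76 in parental RT112. BHLHE41, a HIF target and transcriptional repressor, was at 8.49 in R1 and 8.53 in R2 in drug against 13.15 in parental RT112. ARNT, the shared partner of HIF1A and EPAS1, rose acutely by 1.92 (adjusted p = 0.000185). In RT4 R1 in drug the most marked call was CA12, a carbonic anhydrase, at 8.05 in drug against 13.50 in parental RT4, a log2 difference of -5.46 (adjusted p = 6.8e-05). CA12 was also the widest difference of this list between the parents, at 5.07 in RT112 against 13.50 in RT4.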

How the data were processed

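RNA of 33 samples was hybridised to Affymetrix HTA 2.0 arrays. The deposited values are log2 signals per probe set, which the authors made by RMA (rma_sketch of Affymetrix Power Tools) over all arrays. The genome build behind the annotation is not given in the sources used here. No column was left without a sample (0). Of 70523 probe sets, 23781 carried 1 symbol and 1543 several, and 479 symbols had several probe sets. The brightest probe set by mean over all arrays stood for each symbol, which gave 22465 genes.

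Comparisons used limma 3.58.1 in R 4.3.3 (lmFit and eBayes on the arrays of the groups compared, Benjamini-Hochberg over all genes tested, threshold 0.01). The difference between cell lines was 1 contrast on 12 arrays. Scripts were tested on simulated data. The number of arrays, 3 per condition, limits the precision, and signals were not tested against background. Members, lists and tests were chosen with earlier results of these data known. Genes called in at least 3 comparisons, or with a called log2 difference of 1 or more, are given on every array compared, and up to 4 genes of the wider lists are named per comparison.

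Replicate numbers are shared between groups. Deviations of same-numbered arrays from their group means correlated above 0.1 in every pair in 1 of 16 comparisons, R3 out of drug against parental RT112, and r ran between -0.44 and 0.38 over all. Alternatives were the replicate number as a block, 1 fit per cell line, all probe sets, a filter on dim genes, another prior (statmod 1.5.0), quantile normalisation, centring, the methods' t-test and each array left out.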

Additional observations from a re-analysis of the deposited data

Results flagged for a closer look

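The change in drug from the parent differed between RT112 R1 and RT4 R1 in 6 members by limma's test of that difference (adjusted p under 0.01 over all genes). SLC2A3 differed by 2.16 (log2, adjusted p = 2.15e-05), HK1 by -1.65 (adjusted p = 8.43e-05) and LDHB by -2.33 (adjusted p = 0.000134). BNIP3L differed by 1.64 (adjusted p = 0.00244), PDK3 by -1.26 (adjusted p = 0.00524) and VEGFA by 1.89 (adjusted p = 0.00943). Each line is 1 derivation and the lines were grown in different media, so line, derivation and medium cannot be told apart.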

How the results depend on the processing

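Of 112 member calls over the 17 comparisons, 44 held without any 1 array and 75 with the replicate number as a block, and none changed sign. With 3 arrays a group, counts of calls move with single arrays. The share of all genes called was not counted with an array left out or in the other settings below. The shifts are therefore not read as particular to the members. The causes of the shifts below were not tested.

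With 1 array left out, the number of members called ran 17 to 23 in acutely treated RT112, 5 to 17 in R1, 7 to 18 in R2 and 0 to 2 in R3 in drug, and 0 to 1 in R1, 0 to 3 in R2 and 0 to 0 in R3 out of drug. In against out of drug it ran 1 to 15 in R1, 0 to 10 in R2, 0 to 0 in R3 and 5 to 18 in RT4 R1. It ran 0 to 8 for R1 and 0 to 4 for R2 against R3, 1 to 10 for RT4 R1 in drug and 0 to 0 out of drug against parental RT4, 4 to 17 for the parents and 4 to 9 for the difference between cell lines.

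With the replicate number as a block, the counts that moved by over 1.5 times were 4 in R1, 0 in R3 in drug, 2 in R2 out and 0 in R3 out of drug, 1 in R1 and 2 in R2 in against out of drug, 0 for R1 and 0 for R2 against R3, and 3 for RT4 R1 in drug. With 1 fit per cell line, they were 21 in R1 and 7 in R3 in drug, 2 in R1 and 0 in R3 out of drug, 17 in R1, 11 in R2 and 8 in RT4 R1 in against out of drug, and 13 for R1 and 11 for R2 against R3. Without dim genes they were 2 in R3 out of drug, 11 in R2 in against out of drug and 4 for R2 against R3. Quantile normalisation gave 2 in R3 out of drug and 3 in RT4 R1 in drug, and centring 10 in R2 in against out of drug.

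The methods' t-test after Benjamini-Hochberg gave 13 acutely, 3 in R1, 0 in R2 and 0 in R3 in drug, 0 in each derivative out of drug, 0 in R1 and R2 and 2 in RT4 R1 in against out of drug, 1 for R1 and 0 for R2 against R3, 0 for RT4 R1 in drug and 3 for the parents. Unadjusted at 0.05 it gave 18 in R1 and 13 in R3 in drug, 9 in R1, 16 in R2 and 7 in R3 out of drug, and, in against out of drug, 18 for R1, 23 for R2, 9 for R3 and 26 for RT4 R1, 14 for R1 and 15 for R2 against R3, and 15 in and 5 out of drug for RT4 R1 against parental RT4. It was not run for the difference between cell lines, and its share over all genes was not counted. With limma, 1767 (R3 in against out of drug) to 7904 (R1 in drug) of the 22465 genes had an unadjusted p under 0.05 in the comparisons given unadjusted here. No measured member had a second probe set, so no other probe set of a member could be tried.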
